A study of Drosophila melanogaster with 3 samples.

Results

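The genes of the 26S proteasome and their paralogs were examined for promoter occupancy by Zif (CG10267), a C2H2 zinc finger protein, in Drosophila melanogaster embryos. Members were chosen by symbol from the protein-coding genes of the Ensembl BDGP6 models: symbols that start with Prosalpha or Prosbeta, or with Rpn or Rpt followed by a digit. The rule found 48 of 13945 protein-coding genes. Of these, 32 were main subunits and 16 were paralogs, whose symbols end in T or R, with or without a digit. ChIP-seq peak lists came from 3 biological replicates in 1 group: whole mixed-sex embryos of 0 to 24 h from 1 transgenic line with GFP on the C-terminal end of Zif, precipitated with an anti-GFP antibody. The labels name no treatment or second genotype and do not say which promoter drives the fusion. Since the embryos were whole and pooled, occupancy in a minority of cells and weak occupancy in all cells cannot be told apart.

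The proteasome degrades proteins that carry ubiquitin chains. Its 20S core particle is a barrel of outer alpha rings, which gate entry, and inner beta rings, which hold the proteolytic sites. The 19S regulatory particle caps the barrel: a ring of Rpt ATPases unfolds the substrate, and the Rpn subunits bind ubiquitin, remove it and hold the complex together. Drosophila also carries duplicated subunit genes, many of which are known to be expressed in the male germline. The labels and peak lists hold no expression values, and the testis expression of the paralogs was not examined here.

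A gene is called bound when a summit of the authors' final peak set lay within 500 bp of any of its annotated transcription start sites (TSSs). That set holds 8630 summits selected by the irreproducible discovery rate (IDR), which measures how alike peaks rank in replicates. A bound gene need not have a peak in each replicate, and Rpt6R had none in replicate 3. Of the 32 main subunits, 30 were bound (93.8%), and of the 16 paralogs 2 were bound (12.5%), beside 5723 of all 13945 protein-coding genes (41.0%). The genes are not replicates of a condition, so these shares are descriptions and their difference was not tested.

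The promoters below show the kinds of member that the results turn on: 2 strongly bound main subunits of the 19S particle, and 3 pairs of a main subunit and its paralog. Each runs 5′ to 3′ on the gene's strand of dm6 from 250 bases before the TSS to 50 after it, counting the TSS. Capitals mark TATCGATA, the palindromic core of the DNA replication-related element (DRE), and CAACACTG or its reverse complement, the 8-base word most in excess at strong Zif summits.

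Rpn2 (chr3R:29153274-29153573, plus strand, bound, signal 3794): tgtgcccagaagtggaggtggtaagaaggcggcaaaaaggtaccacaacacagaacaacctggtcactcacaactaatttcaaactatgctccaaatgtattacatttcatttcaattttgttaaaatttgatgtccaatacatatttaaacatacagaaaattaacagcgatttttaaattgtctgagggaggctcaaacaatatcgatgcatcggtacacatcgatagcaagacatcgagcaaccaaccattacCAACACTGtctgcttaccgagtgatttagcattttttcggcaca
Rpt5 (chr3R:23752626-23752925, plus strand, bound, signal 3141): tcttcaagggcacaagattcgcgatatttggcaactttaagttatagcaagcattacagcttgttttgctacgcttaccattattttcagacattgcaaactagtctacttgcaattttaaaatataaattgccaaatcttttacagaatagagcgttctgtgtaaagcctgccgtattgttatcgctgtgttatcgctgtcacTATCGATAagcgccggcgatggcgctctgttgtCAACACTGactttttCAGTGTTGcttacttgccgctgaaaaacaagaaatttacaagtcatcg
Prosalpha6 (chr2L:10221101-10221400, plus strand, bound, signal 265): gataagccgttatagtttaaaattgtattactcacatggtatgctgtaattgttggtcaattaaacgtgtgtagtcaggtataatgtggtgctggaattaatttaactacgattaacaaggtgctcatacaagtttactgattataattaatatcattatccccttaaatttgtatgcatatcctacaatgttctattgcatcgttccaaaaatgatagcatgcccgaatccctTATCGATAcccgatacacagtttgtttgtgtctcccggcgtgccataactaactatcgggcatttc
Prosalpha6T (chr2L:13231789-13232088, plus strand, no summit in any list): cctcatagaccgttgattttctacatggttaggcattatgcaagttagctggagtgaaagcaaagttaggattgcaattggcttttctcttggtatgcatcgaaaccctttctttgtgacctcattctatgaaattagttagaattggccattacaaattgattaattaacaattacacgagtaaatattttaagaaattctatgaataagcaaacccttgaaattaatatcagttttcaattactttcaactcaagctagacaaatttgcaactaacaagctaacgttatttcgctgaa
Prosbeta2 (chr3L:14999701-15000000, plus strand, bound, signal 717): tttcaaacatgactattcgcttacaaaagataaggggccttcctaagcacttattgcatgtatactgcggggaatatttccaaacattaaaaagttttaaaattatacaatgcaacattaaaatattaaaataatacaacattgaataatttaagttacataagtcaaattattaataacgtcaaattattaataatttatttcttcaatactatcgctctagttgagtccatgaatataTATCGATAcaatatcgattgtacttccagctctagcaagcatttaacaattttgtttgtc
Prosbeta2R1 (chrX:5808704-5809003, plus strand, no summit in any list): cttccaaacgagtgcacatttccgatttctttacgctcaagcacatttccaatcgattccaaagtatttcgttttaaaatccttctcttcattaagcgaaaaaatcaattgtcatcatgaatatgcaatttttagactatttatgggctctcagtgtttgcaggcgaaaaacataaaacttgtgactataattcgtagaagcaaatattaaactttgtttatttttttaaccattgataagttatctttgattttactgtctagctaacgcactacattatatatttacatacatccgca
Rpt6 (chrX:21315802-21316101, plus strand, bound, signal 287): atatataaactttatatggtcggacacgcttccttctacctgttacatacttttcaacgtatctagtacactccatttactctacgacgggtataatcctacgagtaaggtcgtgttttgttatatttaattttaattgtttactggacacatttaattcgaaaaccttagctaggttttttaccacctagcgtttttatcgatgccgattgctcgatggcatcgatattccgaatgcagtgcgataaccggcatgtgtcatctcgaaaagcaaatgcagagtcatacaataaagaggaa
Rpt6R (chr3R:30583648-30583947, minus strand, bound, signal 238): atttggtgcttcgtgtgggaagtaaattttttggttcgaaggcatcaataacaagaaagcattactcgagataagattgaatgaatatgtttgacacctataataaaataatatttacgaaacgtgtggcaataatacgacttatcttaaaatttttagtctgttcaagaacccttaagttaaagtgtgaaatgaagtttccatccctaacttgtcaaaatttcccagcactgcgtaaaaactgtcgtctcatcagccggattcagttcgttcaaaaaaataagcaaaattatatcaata

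In these windows Rpt5 held 1 DRE and the word on each strand, Rpn2 held the word next to its TSS, and Prosalpha6 and Prosbeta2 held 1 DRE each. Neither word was found in the windows of Prosalpha6T, Prosbeta2R1, Rpt6 and Rpt6R, although the latter pair were bound. For every gene the window was taken at its 5′-most annotated TSS only, whereas a gene was called bound from any TSS. Over all members, the DRE lay in this window at 12 of 32 main subunits (37.5%) and 0 of 16 paralogs, beside 9.36% of all 13945 promoters and 17.7% of the 5723 bound ones. The 12 were Prosalpha3, Prosalpha5, Prosalpha6, Prosbeta1, Prosbeta2, Prosbeta6, Rpt5, Rpn3, Rpn7, Rpn9, Rpn12 and Rpn13, and each of them was bound. The strongest summits of Rpn9, Rpn6, Rpn8, Prosbeta7 and Rpt3R lay nearest to another of their TSSs and outside these windows. Those of Prosbeta4, Rpn5 and Rpn11, at −392, −267 and −258 bp, lay upstream of their windows. A word found or missing in the windows of all these genes is therefore not one at the strongest summit. CGATA, a shorter core that every DRE contains, lay in 27 main subunits (84.4%), in 8 paralogs (50%), in 47.4% of all promoters and in 60.0% of bound ones.

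The word CAACACTG had the largest excess among 8-base words in the 75 bases to each side of the 1000 strongest IDR summits, with summits near members left out of the search. It lay at 19.9% of those summits and at 0.45% of positions 400 bp away, and it was searched for after the data were seen. Among members its promoter windows were those of Rpt1, Rpt5 and Rpn2 (3 of 32, 9.38%), all among the 8 members with the strongest peaks, and 0 of 16 paralogs held it. All promoters held it in 3.49% and bound promoters in 7.16%. In the 151 bases centred on the strongest summit it lay at Rpt1 and Rpt5 (2 of 30 bound main subunits, 6.67%), beside 5.74% of all 4948 promoter summits. In the same windows the DRE lay at 6 of 30 (20%), beside 9.94% of promoter summits. The other words were likewise searched on both strands. GGTCACAC, the core of the motif 1 bound by M1BP, lay in 5 main subunits (15.6%) and 0 paralogs. It lay in 7.70% of all promoters but in 14.8% of bound ones, so the main subunits were close to bound promoters at large. Around the strongest summits it lay at 2 of 30 bound main subunits (6.67%), beside 7.28% of promoter summits. TGACNNNGC, the antioxidant element read by cap-n-collar factors, lay in 5 main subunits and 1 paralog (8.63% of all promoters and 8.98% of bound ones). The E-box CACGTG lay in 0 members (4.20% of all) and the E-box CAGCTG in Rpt3 and Rpt3R (17.7% of all). GAGAG lay in 3 main subunits and 6 paralogs (29.7% of all), and TATAAA in 13 main subunits and 5 paralogs (45.8% of all). A match is a description of the letters and not of a site in use.

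Peak signal, the value the authors' list gives each peak, ranged from 231 to 3794 over the 30 bound main subunits, with a median of 454. The median over the strongest peaks of all 5723 bound genes was 517, so 14 of the 30 lay above it and 16 at or below it. Main subunits were thus bound often, and mostly with signals of ordinary size. Replicate values below are the signals of the strongest peak in each replicate's own relaxed list, which keeps weak peaks, that overlaps the IDR peak. For comparison across replicates they were divided by the median over the IDR peaks of that replicate, which was 202, 105 and 142 in replicates 1, 2 and 3. This ratio is called the relative signal. It was set to 0 where no replicate peak overlapped, as for Rpt6R in replicate 3.

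**Figure D1:**
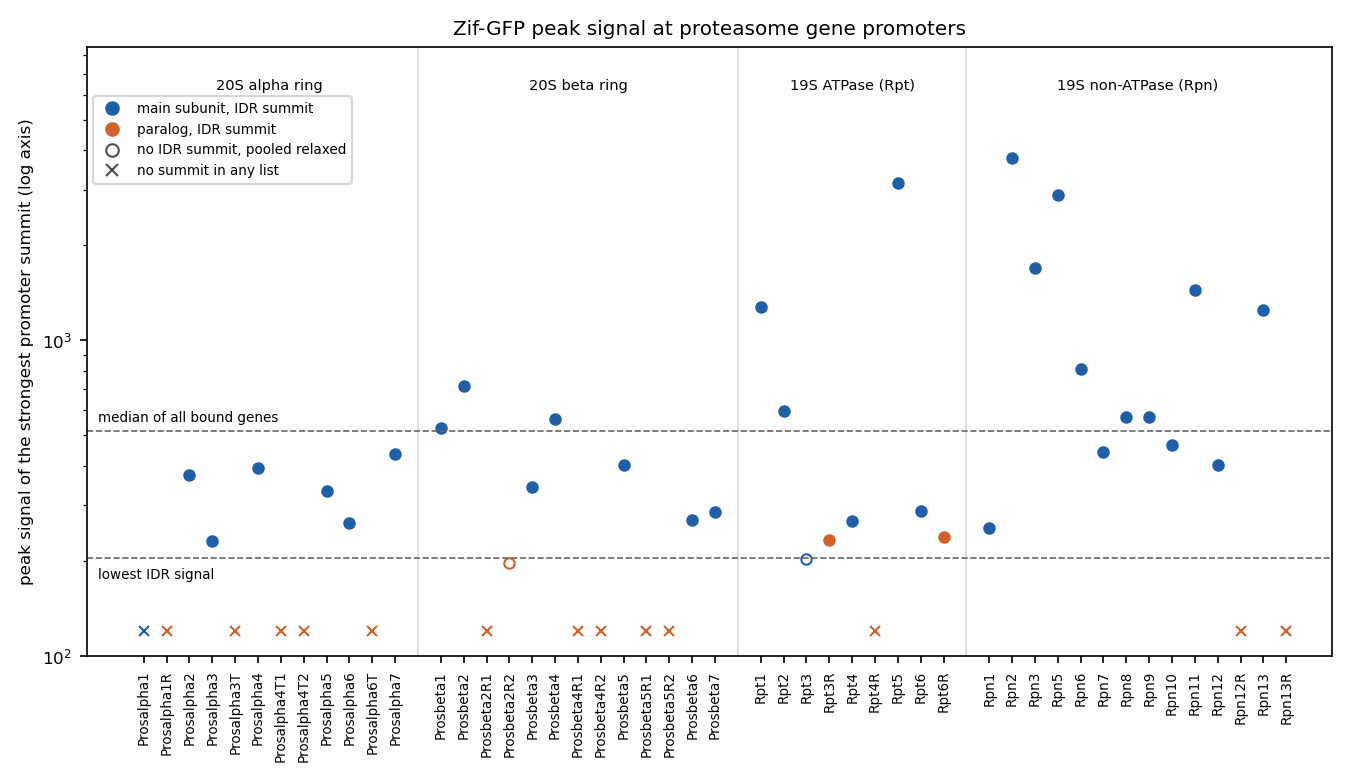
Peak signal of the strongest promoter summit (log axis) for each of the 48 genes, grouped by subcomplex; crosses, placed at a fixed height, have no summit in any list, and open circles have no IDR summit and are drawn at their pooled relaxed value. Main subunits (blue) with an IDR summit run from 231 to 3794, while 13 of the 16 paralogs (orange) are crosses.

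The alpha ring, which gates the core particle, had 6 of its 7 main genes bound, all with signals below the median of bound genes. Prosalpha7 was the highest of them at 437, with 194, 144 and 107 in replicates 1, 2 and 3. Prosalpha4 had a signal of 393, with replicate values of 180, 106 and 124, and its summit lay at −193 bp, nearer to the TSS of kat80 than to its own. Prosalpha3, at 231, was the lowest of all bound members, with 120, 59.1 and 57.2. In relative signal these 6 genes ran from 0.519 ± 0.102 for Prosalpha3 to 1.02 ± 0.309 for Prosalpha7 (SD, n = 3).

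Prosalpha6, at 265, had 79.5 in replicate 1, 67.0 in replicate 2 and 115 in replicate 3. It was the only bound main subunit outside the 8630 strongest peaks of replicate 1. Prosalpha2 and Prosalpha5 had signals of 374 and 334, at −45 and −54 bp from their TSSs.

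The beta ring had 7 of its 7 main genes bound, from 270 for Prosbeta6 to 717 for Prosbeta2. The 3 subunits with proteolytic sites are encoded by Prosbeta1, Prosbeta2 and Prosbeta5, for the caspase-like, trypsin-like and chymotrypsin-like activities. Prosbeta2 had 329, 179 and 237 in replicates 1, 2 and 3 and the steadiest relative signal of the ring (1.66 ± 0.0388, SD, n = 3). Prosbeta1 had a signal of 527 (208, 190 and 149) and Prosbeta5 one of 403 (174, 155 and 93.1). Prosbeta2 was higher than Prosbeta5 in each replicate. Prosbeta1 was also higher than Prosbeta5 in each replicate. Their relative signals, 1.29 ± 0.441 and 0.994 ± 0.424 (SD, n = 3), differed by less than their spread, which includes the shift between replicates that both genes share. Prosbeta4 had a signal of 563 (214, 189 and 173), with its summit at −392 bp from its own TSS, the farthest of all bound members, and nearer to the TSS of Nubp1. Prosbeta3, Prosbeta6 and Prosbeta7 had signals of 344, 270 and 285.

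Of the 6 main Rpt genes, which encode the ATPase ring, 5 were bound. Rpt5 stood apart with a signal of 3141 (3R 23752516 to 23753286, summit 23752855, −21 bp, rank 194 of 8630). Its replicate values were 1241, 1141 and 787, a relative signal of 7.49 ± 2.89 (SD, n = 3). Rpt1 followed at 1281 (2R 7653709 to 7654304, −58 bp), with 555, 416 and 319. Rpt2 had a signal of 597 with its summit 19 bp inside the gene, Rpt6 had 287 (142, 90.0 and 66.6), and Rpt4 had 269 (130, 100.3 and 49.3). The ring thus reached far above the core particle genes, whose signals ran from 231 to 717.

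The 12 main Rpn genes were all bound, with signals from 254 for Rpn1, which encodes a ubiquitin receptor and scaffold subunit, to 3794 for Rpn2. Rpn2, a scaffold subunit of the base, had the strongest peak of all members (3R 29153092 to 29153802, summit 29153460, −64 bp, rank 84). Its replicate values were 1498, 1333 and 978 (relative signal 8.97 ± 3.18, SD, n = 3), and it was the strongest bound member in each of the 3 replicates. Among the 5723 bound genes, 97.9% had a weaker strongest peak.

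Rpn5, a subunit of the lid, had a signal of 2887 (3R 5788778 to 5789808) with 2 IDR summits, the stronger at −267 bp. Replicates 1, 2 and 3 gave 910, 1096 and 905 (relative signal 7.09 ± 3.01, SD, n = 3). Rpn3, also of the lid, had 1702 at 45 bp inside the gene, with 761, 506 and 465. Rpn2, Rpt5 and Rpn5 formed the top of the order, and the step from Rpn5 down to Rpn3 (3.14 in relative signal) was just beyond the combined SD of the 2 genes (3.11).

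Rpn11, the deubiquitinase of the lid, had a signal of 1446 at −258 bp, with 504, 469 and 487 in replicates 1, 2 and 3. Rpn13, a ubiquitin receptor, had 1247 at −33 bp, with 495, 369 and 384. Rpn10, the other classical ubiquitin receptor, was lower, with 466 and replicate values of 186, 150 and 145. Rpn6, a lid subunit, had 809 at −118 bp (326, 257 and 238). Among the members chosen by symbol, the remaining lid subunits Rpn7, Rpn8, Rpn9 and Rpn12 had signals of 404 to 574. The symbol rule does not take in Sem1, which was counted in the second list below and had a signal of 235 (rank 7647).

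The 8 strongest members, Rpn2, Rpt5, Rpn5, Rpn3, Rpn11, Rpt1, Rpn13 and Rpn6, all encode parts of the regulatory particle. Except at Rpn11 and Rpt1, their strongest summits also lay within 500 bp of another gene's TSS (Slbp, RanBP3, Hat1, l(2)37Bb, CtsL1 and ave). Such peaks cannot be assigned to the member alone. Summits were shared at 11 of the 17 bound members of the regulatory particle (64.7%) and 9 of the 13 of the core particle (69.2%). The median signal was 597 over these 17 and 374 over these 13. In each replicate the median relative signal was higher for the regulatory than for the core particle: 1.28 against 0.858, 2.05 against 1.01 and 1.37 against 0.655 in replicates 1, 2 and 3. This difference was seen in 3 of 3 replicates and was not tested, since genes are not replicates. Of the main genes, 17 of 18 were bound in the regulatory and 13 of 14 in the core particle.

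The 8 members with the strongest IDR signal held 7 of the first 8 places in replicate 1 and all 8 in replicates 2 and 3. Of 31 neighbouring pairs in the order of mean relative signal, 29 differed by no more than their combined SD, and the exceptions were Rpn5 above Rpn3 and Rpn13 above Rpn6. Members farther apart in the order were better separated: of all 496 pairs of bound members, 330 differed by more than their combined SD. Within replicates, which all members share, the member with the higher mean was also higher in 3 of 3 replicates in 408 of the 496 pairs and in 5 of the 31 neighbouring pairs, Rpn2 above Rpt5 among them. Replicate 2 gave the highest relative signal at 28 of the 32 bound members and replicate 3 the lowest at 19, and this shift between replicates enters the SDs. The 0 set for Rpt6R in replicate 3 enters its mean and SD and all these counts. All bound genes shared the shift of replicate 2 in part: their median relative signal was 1.41 in replicate 2 against 1.11 and 1.08 in replicates 1 and 3.

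**Figure D2:**
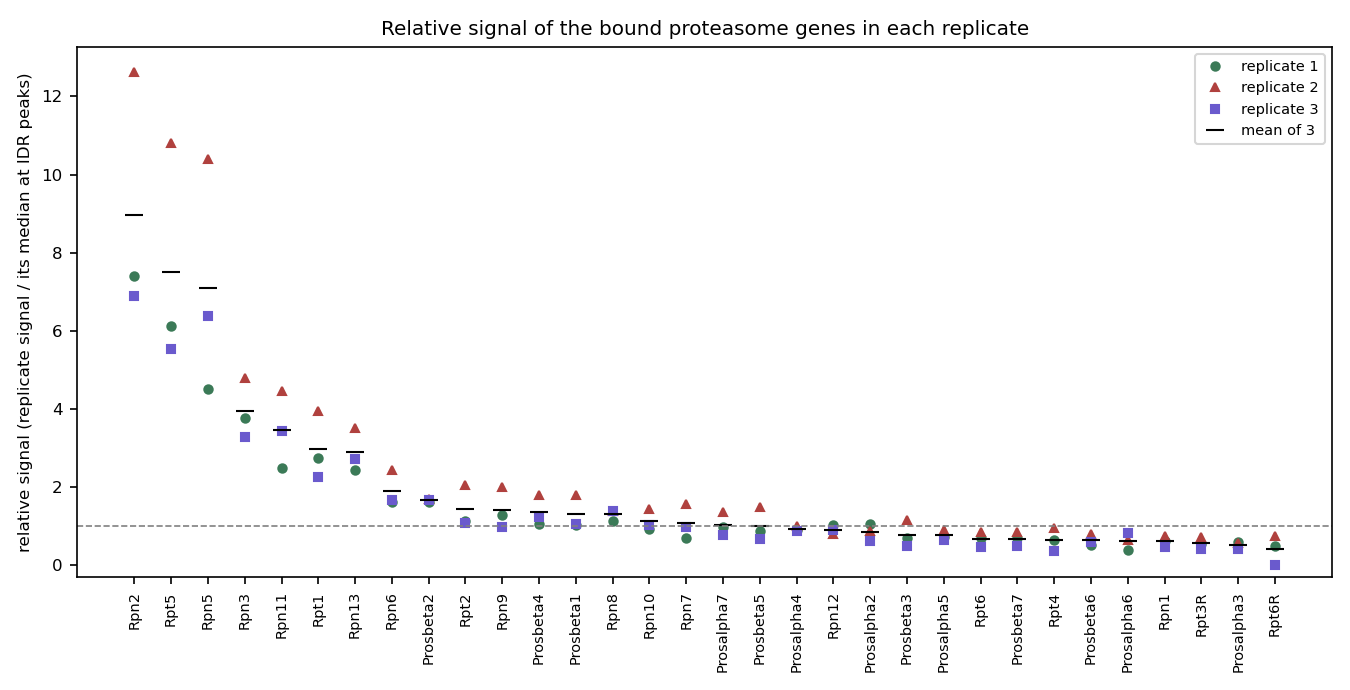
Relative signal (peak signal over the replicate's own median at IDR peaks) of the 32 bound members in replicates 1, 2 and 3, with their mean as a bar, ordered by the mean. Rpn2 leads in each replicate and replicate 2 (triangles) is the highest of the 3 at 28 members. Rpt6R is drawn at 0 in replicate 3, where it had no overlapping peak.

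Summits lay mostly just upstream of the nearest own TSS. Over the 30 bound main subunits the median distance was −73.5 bp (negative is upstream), beside −111 bp over all bound genes. At or upstream of that TSS lay 28 of the 30 (93.3%, beside 90.6% of all bound genes), and the exceptions were Rpn3 at 45 bp and Rpt2 at 19 bp. The summits of Rpn6, Rpn8, Rpn9 and Prosbeta7 were upstream of an internal TSS, and so lay within the annotated gene. At 20 of the 30 (66.7%, beside 57.9% of all bound genes) another protein-coding gene had a TSS within 500 bp of the strongest summit. Rpn2 shared its summit with Slbp, which encodes the stem-loop binding protein of histone mRNAs, Rpn5 with Hat1, a histone acetyltransferase gene, and Rpt5 with RanBP3. Prosbeta2 shared it with mRpL39, a mitochondrial ribosomal protein gene, and Prosalpha6 with Npc1a, a sterol transport gene. A summit within reach of 2 genes cannot be assigned to one of them. When a summit counted only for the protein-coding gene with the nearest TSS, 24 main subunits were still bound, beside 30.7% of all protein-coding genes, and Prosalpha4, Prosalpha6, Prosbeta4, Rpt4, Rpn8 and Rpn9 were not.

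**Figure D3:**
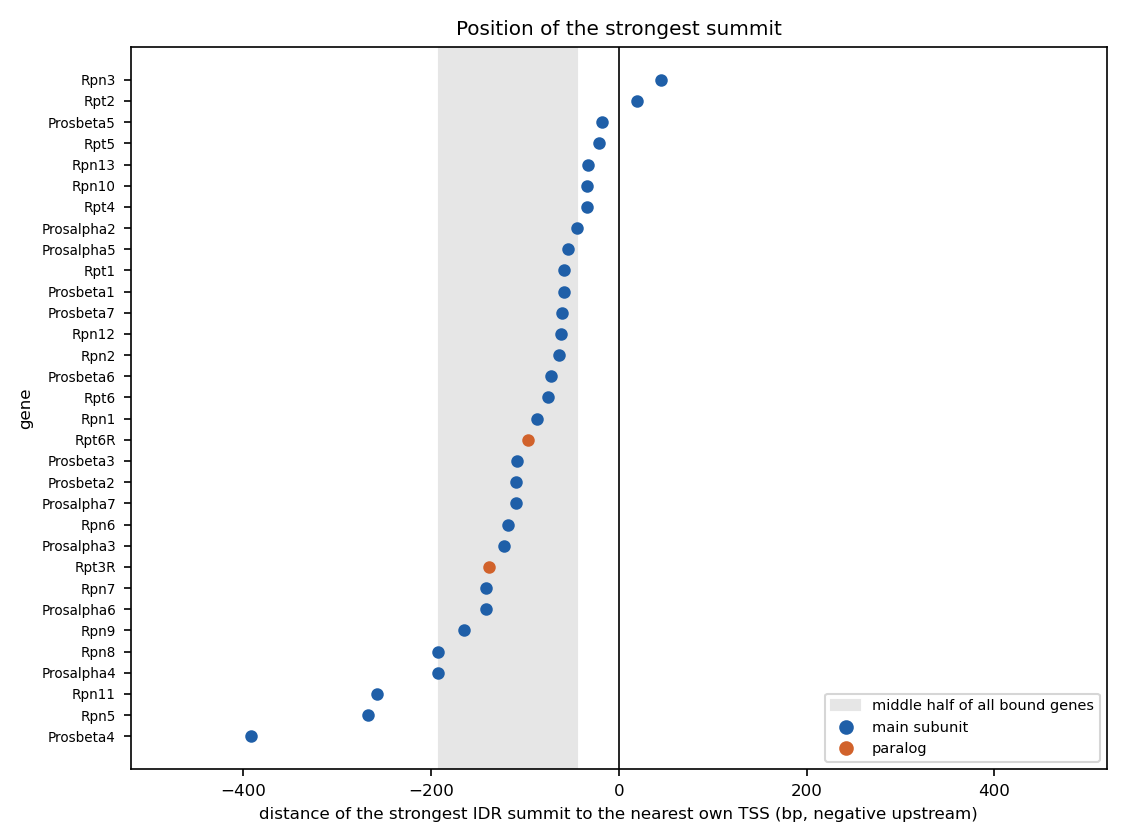
Distance in bp from the strongest IDR summit to the nearest TSS of the same gene for the 32 bound members (negative is upstream), with the range between the quartiles of all bound genes shaded (−191 to −44 bp). Main subunits are blue and paralogs orange, and 30 of the 32 lie at or upstream of that nearest TSS.

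The main subunits without an IDR summit were Prosalpha1 and Rpt3. Rpt3 lay just outside the set: its strongest pooled relaxed summit, at −269 bp, had a signal of 203 and rank 8659, while the weakest IDR summit had 204 at rank 8630. The strongest peak within 500 bp of a TSS had 30.3 in replicate 1, 107 in replicate 2 and 92.2 in replicate 3. Their summits lay at 21, −314 and −87 bp, so these need not be the same peak. The Rpt3 promoter was thus among the 8630 strongest peaks of replicates 2 and 3, while its strongest peak in replicate 1 had rank 21103. The members just inside the threshold were Prosalpha3 at 231, Rpt3R at 234 and Rpt6R at 238.

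Prosalpha1 had no promoter summit in any list, and neither had Prosalpha1R, its paralog nearby on the same arm (2R 7827303 to 7828678 and 7830413 to 7831771). Their proteins were identical over 244 residues, and 984 of the 984 aligned bases in the 1001 bases around their TSSs were identical. Every 32-base word in these windows occurs more than once in the genome. By contrast, 28 of the 32 main subunits and 15 of the 16 paralogs had no such word, beside 12800 of all 13945 protein-coding genes. Among the 304 protein-coding genes with 50% or more repeated words, 2 (0.658%) were bound, beside 41.9% of the other 13641. Whether reads with several matches were kept is not given in the sources used here, and the part of repeats in these absences was not tested. The lack of a summit at this pair was therefore not read as a lack of Zif.

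Of the 16 paralogs, 13 had no promoter summit in any of the 5 lists, including the pooled relaxed list of 30000 summits. A summit in any list was found for 31 of the 32 main subunits (96.9%), 3 paralogs (18.8%) and 64.6% of all protein-coding genes, and in the pooled relaxed list for 31, 3 and 56.3%. For the 14 members with no summit in any list, Prosalpha1 included, the nearest IDR summit was 3326 to 69930 bp from a TSS, with a median of 19305 bp. The nearest pooled relaxed summit was also 3326 bp away or farther at each of them. Most paralogs thus lay well away from any IDR or pooled peak.

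**Figure D4:**
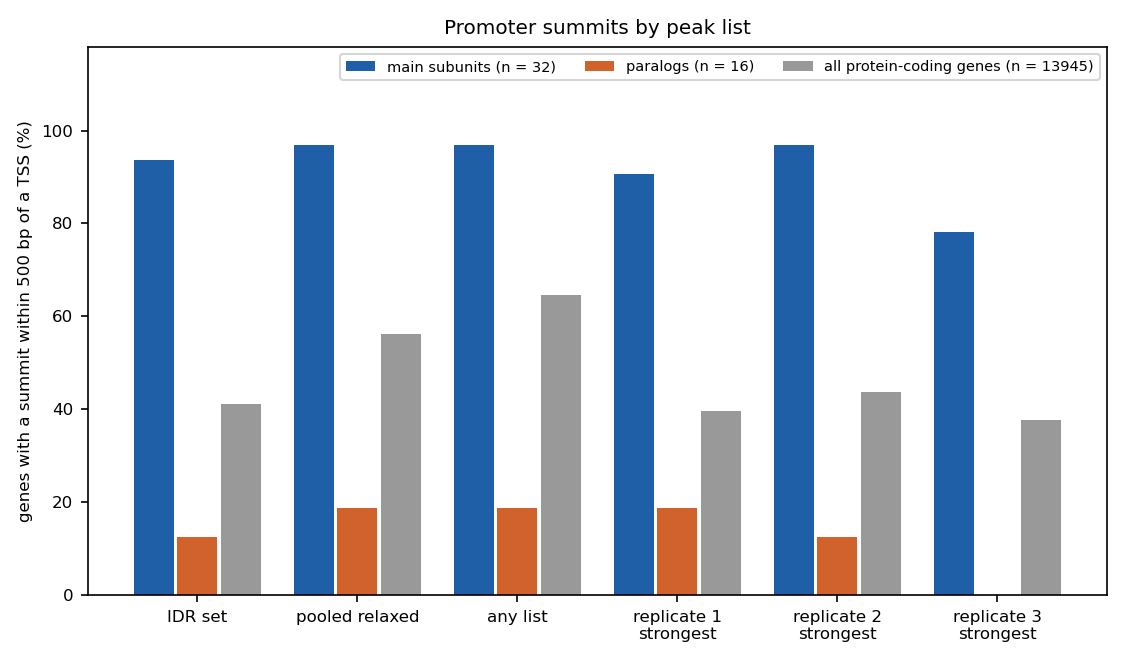
Percentage of main subunits (blue), paralogs (orange) and all protein-coding genes (grey) with a summit within 500 bp of a TSS in the IDR set, the pooled relaxed list, any of the 5 lists, and the 8630 strongest peaks of each replicate. Main subunits range from 78.1% to 96.9% and paralogs from 0% to 18.8% across the 6 groups of bars.

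The lists of the single replicates, cut to their 8630 strongest peaks, held a promoter summit for 29, 31 and 25 main subunits in replicates 1, 2 and 3 (88.5% ± 9.55, SD, n = 3) and for 3, 2 and 0 paralogs (10.4% ± 9.55). Over all protein-coding genes the share was 40.3% ± 3.03. Replicate 3 gave the fewest in each class. In all 3 lists at once, 23 of the 32 main subunits (71.9%) and 0 of 16 paralogs had a promoter summit, beside 33.8% of all protein-coding genes. Without replicate 3 these counts were 29 and 2, beside 37.5% of all protein-coding genes.

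The bound paralogs were both of the ATPase ring, Rpt6R and Rpt3R. Rpt6R had a signal of 238 (3R 30583665 to 30583910, −97 bp, rank 7566), with 98.5 in replicate 1, 77.1 in replicate 2 and no overlapping peak in replicate 3. Its main subunit Rpt6 had 287, with 142, 90.0 and 66.6. The main gene was thus higher in replicates 1 and 2 and alone had a peak in replicate 3. Rpt3R had a signal of 234 (3R 9756112 to 9756591, −138 bp, rank 7674), with 107, 76.4 and 57.3, and shared its summit with Alg12. Its main subunit Rpt3, given above, was higher than Rpt3R in replicates 2 and 3 and lower in replicate 1, and fell outside the IDR set. Rpt4R, the third ATPase paralog, had no summit in any list, while Rpt4 was bound.

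Prosbeta2R2 was the only other paralog with a promoter summit. It had a pooled relaxed signal of 197 at −64 bp, rank 8829, and thus missed the IDR set. Its peaks had 105 in replicate 1, 39.3 in replicate 2 and 26.5 in replicate 3, at ranks 8012, 10760 and 19302. Prosbeta2, its main subunit, was higher in each replicate (329, 179 and 237). Prosbeta2R1, the second copy of the same subunit, had no summit in any list.

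The 16 paralogs belong to 12 main subunits. In 13 of these pairs the main gene was bound and the paralog was not. Both were bound for Rpt6 and Rpt6R, the paralog alone for Rpt3 and Rpt3R, and neither for Prosalpha1 and Prosalpha1R. The main subunits that have a paralog had 10 of 12 bound with a median signal of 398, and those that have none had 20 of 20 bound with a median of 550. These classes differ in subcomplex. Rpn12 and Rpn13 were the only Rpn genes with a paralog, and bound Rpn genes had the highest median signal (691, beside 354 in the alpha ring). The part of this in the difference was not tested. One unbound gene, Prosalpha1, is of the repeated pair whose lack of a summit was not read as a lack of Zif. Further main subunits with an unbound copy were Prosalpha3, Prosalpha4, Prosalpha6, Prosbeta2, Prosbeta4, Prosbeta5, Rpt4, Rpn12 and Rpn13. Rpn12 had a signal of 404, with 208, 84.4 and 126 in replicates 1, 2 and 3. In 10 of the 16 pairs the copies lay on different chromosome arms.

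The paralogs differed widely in how far their proteins have diverged. Identity with the main subunit over aligned residues ran from 38.4% for Rpn13R to 100% for Prosalpha1R, with a median of 60.6%. The ATPase paralogs were the closest after Prosalpha1R, with 88.7% for Rpt6R, 82.1% for Rpt4R and 81.7% for Rpt3R. Of these 3, Rpt6R and Rpt3R were bound, and Rpt4R was not. Prosbeta2R2, with a relaxed summit only, had 45.3%. Prosalpha4T1 at 75.1% and Prosalpha3T at 61.8% had no summit in any list, so high identity did not go with a peak throughout. Proteins were compared from coding sequence and say nothing of promoter divergence.

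**Figure D5:**
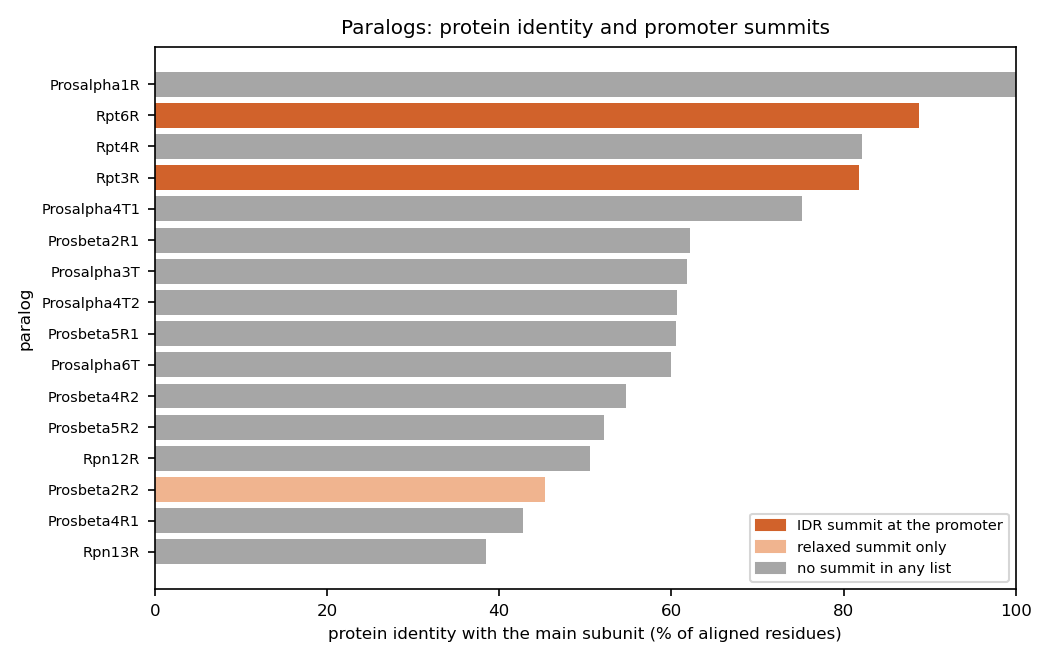
Protein identity of each of the 16 paralogs with its main subunit (% of aligned residues), coloured by whether the promoter held an IDR summit, a relaxed summit only or no summit in any list. The bound paralogs Rpt6R and Rpt3R have 88.7% and 81.7%, and Prosbeta2R2, with a relaxed summit only, has 45.3%.

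Gene structure also differed between the classes. A single exon was annotated for 6 of 16 paralogs (37.5%), 4 of 32 main subunits (12.5%) and 15.2% of all protein-coding genes. Of the 2126 single-exon genes 20.8% were bound, and of the genes with more exons 44.7%. Within the list, the 4 single-exon main subunits Prosbeta3, Rpt1, Rpn7 and Rpn12 were all bound, and the 6 single-exon paralogs were not. Among genes with more than 1 exon, 26 of 28 main subunits and 2 of 10 paralogs were bound. The part of gene structure in the low share of the paralogs was not tested further.

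Genes that assemble, feed or regulate the proteasome were taken as a second list of 25, of which 24 were matched and Ecm29 was not. Of the 24, 22 were bound (91.7%, beside 41.0% of all protein-coding genes), with a median signal of 499. Keap1, the adaptor that holds cap-n-collar factors in check, had 3830, with 1488, 1410 and 962 in replicates 1, 2 and 3. Uba1, the ubiquitin-activating enzyme gene, had 3781 (1455, 1329 and 1026). Plap had 3414 (1384, 1176 and 877), and ntc, an F-box protein gene of sperm individualisation, had 2790 (1143, 947 and 727). These values are of the order of Rpn2 and Rpt5. Keap1 shared its summit with kuk, Plap with CG31922, and ntc with CG32264 and IntS10, whereas Uba1 shared its summit with no other protein-coding gene. The shared peaks cannot be assigned to the listed gene alone, and other bound genes of this list, PI31 among them, also had shared summits.

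The gene cnc encodes the cap-n-collar transcription factor, whose mammalian relative drives proteasome genes when the proteasome is inhibited. Its strongest summit lay 345 bp inside the gene with a signal of 470, and the replicates gave 244, 65.8 and 160. The unbound genes of this list were REG, a proteasome activator gene, and RpL40, which encodes ubiquitin fused to a ribosomal protein; they are named after their values were seen. Both had pooled relaxed summits, with signals of 66.7 and 174.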

How the data were processed

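Peak lists of 3 replicates were used. Per the labels, the assay is ChIP-seq on dm6 with a control library, which was not analysed here; the IDR cutoff, caller and aligner were not given in the sources used here. Signal is the authors' own value for each peak, and the deposited lists share no common scale; replicate signals were divided by the replicate's median at IDR peaks where replicates are set side by side. Peaks were ranked by signal, and the authors' −log10 q values were not used. The notes beside the files derive the pooled list and the IDR set from replicates 2 and 3, but at 7502 IDR peaks the pooled signal divided by the summed signal of all 3 replicates had a median of 0.991, and 1.82 with replicates 2 and 3 alone, so no replicate is independent of the set. At each bound member the signal and rank of the strongest promoter summit were the same in the IDR set and in the pooled list. Depth is unknown, since no read counts are given.

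TSSs came from Ensembl release 115 on 2L, 2R, 3L, 3R, 4 and X, with transposable elements left out; all peaks fitted the reference chromosome lengths. The pooled and replicate lists held 30000 summits each. Promoters and coding sequences were read from the RefSeq dm6 genome, and proteins were aligned globally with BLOSUM62 (Biopython 1.88). Summit assignment was checked on simulated data. The members and lists were chosen with earlier results of these data known; named genes were the 8 strongest members, unbound main subunits, main subunits with paralogs, paralogs with any summit, and up to 4 of the second list with cnc. No significance test was run, since there is 1 group and genes are not replicates.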

Additional observations from a re-analysis of the deposited data

How the results depend on the processing

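Of 41 alternatives computed, 34 left the value within its spread or the count within 1.5 times. With only the IDR summits above the median signal of the set, bound main subunits fell from 30 to 17 and bound paralogs from 2 to 0, beside 26.0% of all protein-coding genes. From the strongest peaks of replicate 3 alone, 0 paralogs had a promoter summit. Leaving out 1 replicate, the main subunits in all remaining lists numbered 23 to 29 (23 with all 3), the paralogs 0 to 2 (0 with all 3; 2 without replicate 3), and the median relative signal of bound main subunits 0.963 to 1.24 (1.10 with all 3). Scaled to the median of all relaxed peaks, this median became 4.33, since that divisor is smaller. The median summit distance of −73.5 bp became −63 bp within 200 bp and −61 bp with the nearest gene only, since distant summits drop out. RefSeq TSSs, added after the data were seen, gave 30 and 2 bound. No paired analysis was possible because there is 1 group, with no second group to pair by replicate number; genes were compared within replicates. Depth is unknown, so a missing peak was not read as absence, although in relative signals it was counted as 0.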
